A study of Macaca fascicularis with 2 samples.

Results

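Of 9 genes for chains of type VI and of fibril-associated collagens chosen by name, 6, *COL6A3*, *COL9A1*, *COL9A2*, *COL12A1*, *COL14A1* and *COL16A1*, were among the 21371 genes listed. *COL6A1*, *COL6A2* and *COL9A3* were not listed, so type VI was represented by 1 of its 3 classical chains and type IX by 2 of its 3. The cells came from 1 TAS-seq library, a whole-transcriptome method that captures the mRNA of each cell on a barcoded bead. Nucleus pulposus (NP, the gelatinous core of the intervertebral disc) and articular cartilage (AC) of male, wild type cynomolgus monkeys aged 3 years were dissociated with enzymes, tagged, sorted as live cells and sequenced as 1 pool. All cells were untreated. The 3 tissue samples named in the labels (AC3, NP3 and AC4) came from 2 monkeys, whereas the cells carried 4 sample tags (A951 to A954). No source read here pairs tags with tissues, so AC and NP were not separated.

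Levels are reads of a gene per 1000000 reads on genes (rpm). After doublets, untagged cells and cells outside the quality limits were left out, 5653 of 5723 cells remained, with 1341305522 reads. The cells were put in 3 groups by rules on other genes. Notochordal cells (NCs) had 5 or more reads of both *KRT19* and *TBXT* and numbered 310, with 67, 236, 5 and 2 under tags A951 to A954. *ASPN*+ *CILP*+ cells had 100 rpm or more of both genes and numbered 660, with 36, 38, 220 and 366 by tag. The other 4683 cells, called remaining cells, numbered 892, 851, 1152 and 1788 by tag. No cell met both rules, and no cell number occurred under more than 1 tag. The median cell had 186370 reads in NCs, 271695 in *ASPN*+ *CILP*+ cells and 191905 in remaining cells. A further 85 cells had 5 reads of only 1 of *KRT19* and *TBXT* and were counted outside the NCs.

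The groups were described by marker genes. All 9 notochordal markers were at least 2-fold higher in NCs than in remaining cells, but the rule used 2 of them (*KRT19* and *TBXT*). Of the 9346 genes compared (those with a read in at least 10% of cells), 21.7% were higher by as much. The authors' own analysis, which included this library, also named *APOE*, *C3orf49*, *NRN1* and *SRGN* as markers, so these are no independent support. Outside the rule, *APOE* was at 10894 against 164 rpm and *NCAM1* at 506 against 27.6 rpm. Of the 6 chondrocyte markers, *ACAN* and *SOX9*, which chondrocytes share with NCs, were higher in NCs by 1.76 and 1.71 on the log2 scale. The other 4 were at least 2-fold lower, beside 12.3% of all genes compared, with *COL2A1* at −4.09, *MATN3* at −3.56, *CNMD* at −2.67 and *HAPLN1* at −2.17. In remaining cells the chondrocyte genes *COL2A1*, *ACAN* and *HAPLN1* were at 21617, 4268 and 2242 rpm. Of the 6 genes listed as fibrocartilage markers, 5 were at least 2-fold higher in *ASPN*+ *CILP*+ cells than in remaining cells, beside 1.22% of all genes compared. The rule used 2 of them, and the sixth, *SULF2*, was higher by 0.99 on the log2 scale. The authors' analysis, which included this library, named all 6 as markers. It matched *IGFBP6* and *PRSS23* to fibrocartilage chondrocytes but *CRTAC1* and *ASPN* to prehypertrophic ones, so the list does not name 1 cell type. In NCs *PRSS23* was higher by 1.11 and the other 5 were at least 2-fold lower. Endothelial and immune markers were low in every group, and mural markers had their highest sum in NCs. The 4 endothelial markers summed to 3.47 rpm in NCs, 2.96 rpm in *ASPN*+ *CILP*+ cells and 2.78 rpm in remaining cells. The 3 mural markers summed to 80.1, 19.2 and 10.3 rpm, led by *ACTA2*, and the 3 immune markers to 16.1, 20.7 and 18.4 rpm, led by *CD68*. Tendon and outer annulus markers summed to 90.9 rpm in remaining cells, of which *THBS4* made up 88.0 rpm and *TNMD* 0.23 rpm. Osteoblast markers summed to 4.42, 7.53 and 63.1 rpm in the 3 groups, and *SCX*, *HBB* and *HBA1* were not listed. In remaining cells the notochordal markers summed to 191, 739, 147 and 104 rpm under tags A951 to A954, highest under the tag with the most NCs. The part of these cell types in the results was not tested.

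Type VI collagen forms a beaded microfibril network and is concentrated in the pericellular matrix, the thin shell around each cartilage or disc cell. Type IX, XII, XIV and XVI collagens are fibril-associated collagens, short interrupted helices that sit on the surface of other fibrils rather than forming fibrils of their own. Type IX is bound covalently to type II fibrils and joins them to other matrix molecules, types XII and XIV are found mainly with type I fibrils in dense connective tissue and at the cartilage surface, and type XVI occurs with fibrils in cartilage and skin. The 2 type IX genes encode different chains of 1 trimer, so that the ratio of their reads can be compared between groups.

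All 5 fibril-associated genes were lower in NCs than in remaining cells, by 9.52-fold to 24.0-fold, and *COL6A3* was 2.07-fold higher. All 6 listed genes were thus past 2-fold, while 34.1% of the 9346 genes compared (those with a read in at least 10% of cells) were past 2-fold in either direction. In the single directions, 12.3% of the genes compared were at least 2-fold lower in NCs and 21.7% at least 2-fold higher. The median gene was 0.26 higher in NCs on the log2 scale. Relative to that median, *COL6A3* was 0.79 higher, short of 2-fold, and the 5 others differed by −4.85 (*COL9A1*) to −3.51 (*COL12A1*). When the 85 cells with 5 reads of only 1 of *KRT19* and *TBXT* were counted as NCs too, the log2 differences of the 5 genes were smaller, from −2.89 (*COL16A1*) to −2.25 (*COL9A2*), and each stayed past 2-fold. There is 1 library, and its tags are not matched to tissue samples, so that no test was made and the tags are not used as replicates. Intervals given with levels are exact 95% Poisson intervals of the summed reads and those given with shares are exact 95% binomial intervals. Reads carry no molecular identifiers and keep PCR copies, so both cover counting error of reads or cells only. The Poisson intervals leave out PCR copies and differences between cells, so the uncertainty of a level is wider than they show. Because levels are shares of all reads, fewer reads of a gene cannot be told apart from more reads of others.

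*COL6A3* encodes the longest of the classical type VI chains. In NCs it was at 194 rpm under tag A951, 212 rpm under A952, 310.0 rpm under A953 and 179 rpm under A954, where 5 and 2 cells made up the last values. In remaining cells it was at 107, 125, 112 and 85.5 rpm. Every tag of the NCs lay above every tag of the remaining cells. The share of all genes compared whose tags separate in this way is not given, so such separation is only described, for this and every other member. Pooled over tags the level was 212 rpm in NCs (208 to 215) and 102 rpm in remaining cells (102 to 103), and within tags the log2 difference was 0.86 under A951, 0.75 under A952 and 1.47 under A953. Of the genes compared, 79.6% had a lower ratio than *COL6A3*. Without the 2 NCs and the other cells of tag A954 the difference was 0.89 on the log2 scale, short of 2-fold.

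More NCs than remaining cells carried *COL6A3* reads. At least 1 read was found in 71.9% of NCs (66.6 to 76.9) and 57.6% of remaining cells (56.2 to 59.1), and at least 5 reads in 155 of 310 NCs and 26.6% of remaining cells. When each cell was thinned to 50000 reads, which left out 11 NCs and 184 remaining cells, the shares with a read were 59.9% and 37.5%. A single read is weak evidence in this library. *ASPN* and *CILP*, markers of another cell type, each had a read in 38.7% of NCs at their median depth of 186370 reads, and 5 or more reads in 0.32% and 3.23% of them. In remaining cells the median cell was at 4.25 rpm, the upper quartile at 27.7 rpm and the highest cell at 5677 rpm, and the 10% of cells with the most reads held 77.4% of them. In NCs the 10% with the most held 53.2%. At 5 or more reads, or with a read at 50000 reads per cell, *COL6A3* was thus found in a minority of remaining cells. The share of NCs was larger by both measures.

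*COL9A1* and *COL9A2* encode the α1 and α2 chains of type IX collagen. In NCs, *COL9A1* was at 446, 145, 1181 and 60.8 rpm under tags A951 to A954. In remaining cells it was at 6505, 6406, 5231 and 5266 rpm. The tags of the 2 groups did not overlap, and tag A953, with the highest NC value, held only 5 NCs. These 5 cells had a median of 494207 reads, against 186370 over all NCs. The 6 genes listed as fibrocartilage markers summed to 2460.3 rpm in them, against 300.03 and 716 rpm in NCs of tags A951 and A952. *PRSS23* made up 185 and 543 rpm of the A951 and A952 sums, whereas *IGFBP6* led under A953 with 840 rpm. The part of depth or of these genes in the A953 values of any member was not tested. The pooled levels were 236 rpm (232 to 239) and 5659 rpm (5654 to 5663), a log2 difference of −4.59. Within tags it was −3.87 under A951, −5.47 under A952 and −2.15 under A953, and without tag A952 it was −3.32 pooled. The A951 value rested on few cells, since the 10% of its NCs with the most *COL9A1* reads held 88.4% of them. The median NC was at 63.6 rpm under A951 and 65.0 rpm under A952.

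*COL9A2* was at 464, 407, 1310.0 and 72.3 rpm in NCs and at 5000, 5084, 4217 and 4512 rpm in remaining cells. Here too the tags of the groups did not overlap. The pooled levels were 447 rpm (442 to 453) and 4617 rpm (4613 to 4622), a log2 difference of −3.37, with −3.43, −3.64 and −1.69 within tags A951 to A953.

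*COL16A1*, which encodes the only chain of type XVI, was at 120, 56.0, 578 and 11.4 rpm in NCs and at 1992, 1906, 1570 and 1867 rpm in remaining cells. Its pooled log2 difference was −4.41, with −4.06, −5.09 and −1.44 within tags A951 to A953 and −3.26 pooled without tag A952. *COL14A1*, the only chain of type XIV, was at 55.8, 21.0, 78.5 and 11.4 rpm in NCs and at 644, 648, 514 and 577 rpm in remaining cells. Its pooled log2 difference was −4.31, with −3.53, −4.95 and −2.71 within the same tags and −3.29 without tag A952. For both genes the highest tag of the NCs lay well below the lowest tag of the remaining cells. Under tag A951 the 10% of NCs with the most reads held 86.0% of *COL16A1* and 87.8% of *COL14A1* reads.

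*COL12A1*, the only chain of type XII, was the least certain of the 5. In NCs it was at 19.0, 5.63, 89.5 and 3.80 rpm by tag, the last from 1 read, and in remaining cells at 105, 113, 123 and 90.1 rpm. The 5 NCs of tag A953 came close to the lowest tag of the remaining cells. The pooled log2 difference was −3.25, with −2.46, −4.33 and −0.46 within tags A951 to A953, and without tag A952 it was −1.80.

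**Figure D1:**
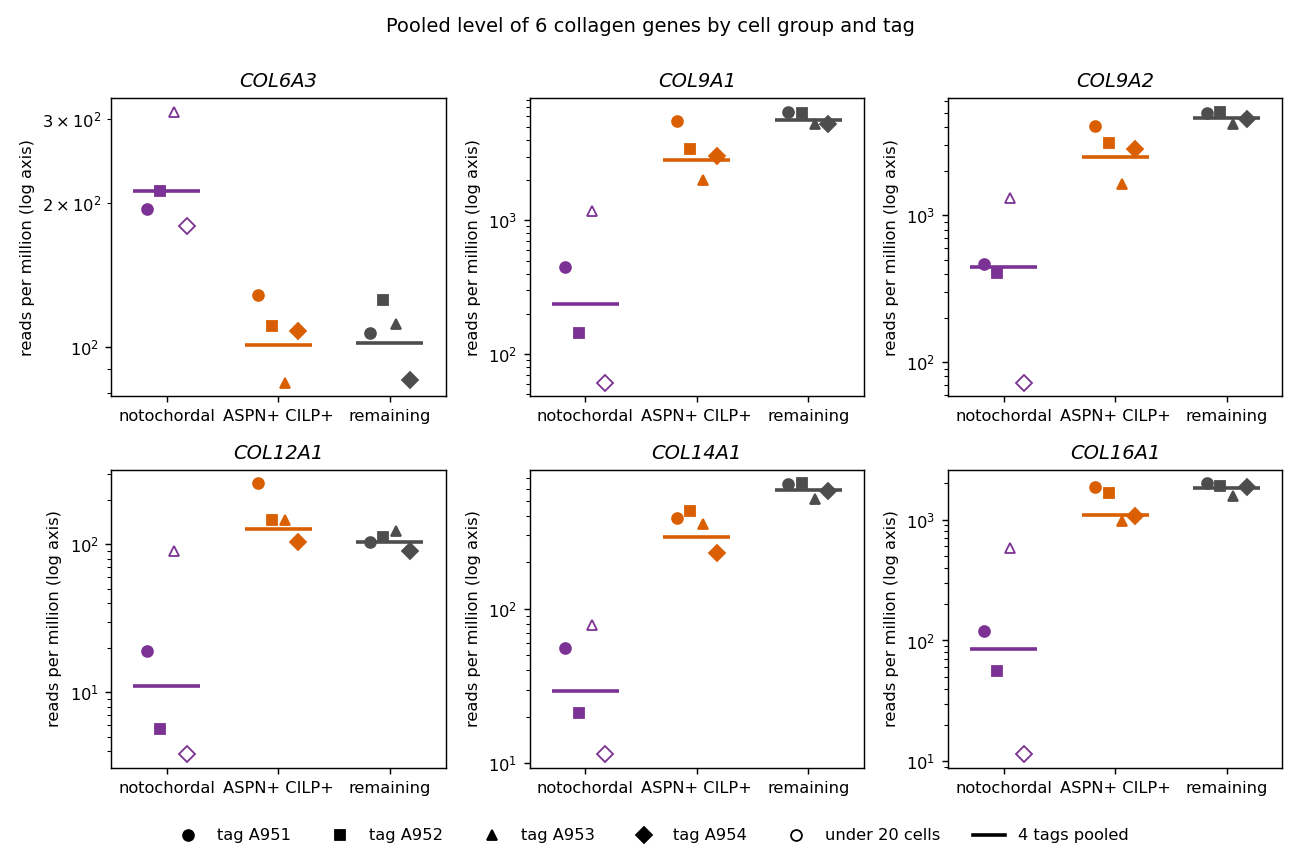
Pooled level of each gene in rpm (log axis, with a scale of its own in each panel) for NCs, *ASPN*+ *CILP*+ cells and remaining cells; symbols stand for tags, open symbols for tags with under 20 cells and horizontal lines for the 4 tags pooled. NCs lay above the other groups for *COL6A3* (212 rpm pooled) and below them for the 5 other genes.

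The difference was as plain in single cells for *COL9A1*, *COL9A2*, *COL14A1* and *COL16A1*. For *COL6A3* the groups overlapped, with 208 of 310 NCs above the median remaining cell at 4.25 rpm. For *COL9A1*, only 6 of 310 NCs reached the lower quartile of the remaining cells, 1616 rpm, and for *COL9A2*, *COL14A1* and *COL16A1* 4, 10 and 5 NCs reached theirs. *COL12A1* was sparse in both groups, and 77 NCs lay above the median remaining cell at 3.26 rpm. Most NCs nevertheless had some reads of the genes other than *COL12A1*. The quartiles of *COL9A1* in NCs were 47.9 and 91.3 rpm and those of *COL9A2* 85.9 and 293 rpm, and 99.7% of NCs had at least 1 read of each. For *COL16A1* the quartiles were 13.5 and 33.0 rpm and 93.2% of NCs had a read, but 45.5% had 5 or more, against 94.2% of remaining cells. For *COL14A1* the shares with a read were 74.2% and 93.0%, and those with 5 or more reads 9.68% and 79.4%. For *COL12A1* they were 32.3% and 53.8% with a read, and 4.84% and 32.2% with 5 or more. At 50000 reads per cell, 37.8% of NCs and 86.0% of remaining cells had a *COL14A1* read, and 11.04% and 39.7% a *COL12A1* read.

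**Figure D2:**
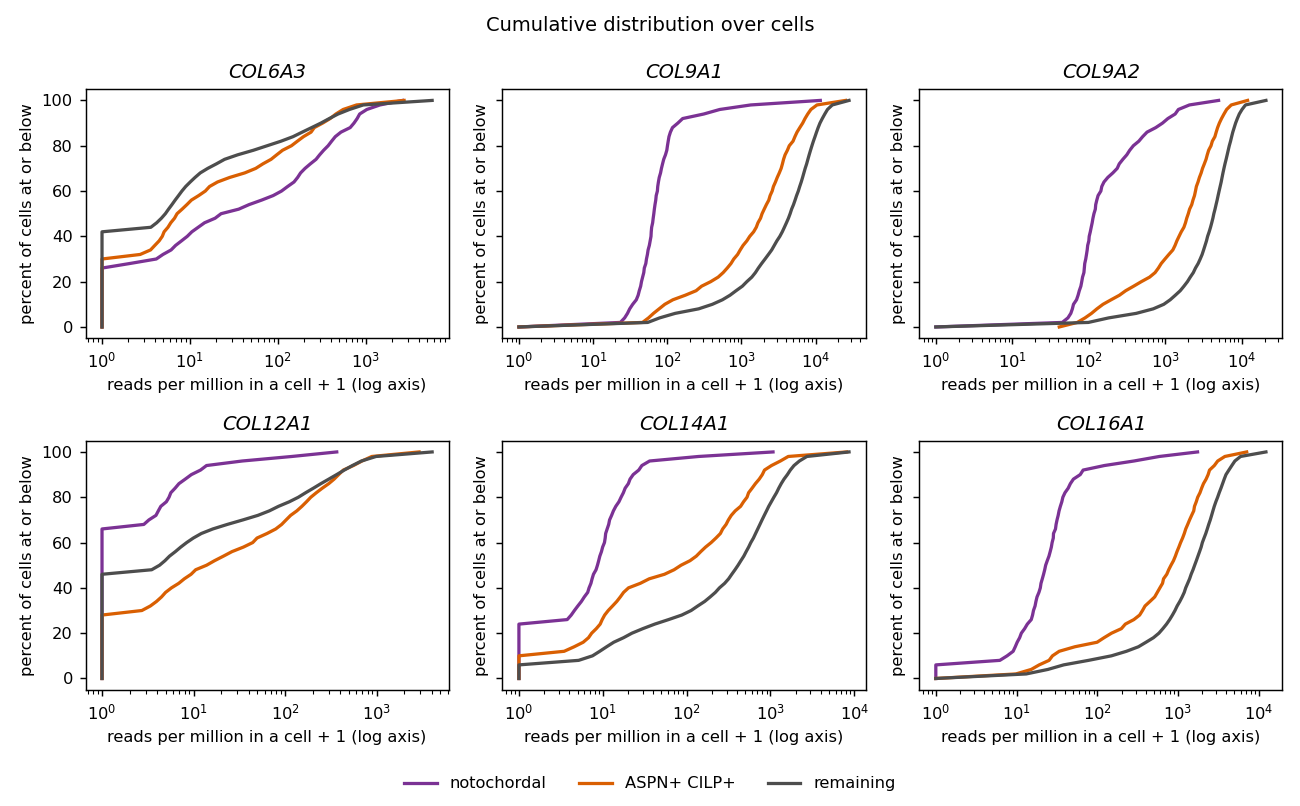
Percent of cells (vertical axis) at or below a level in rpm plus 1 (horizontal log axis) for each gene in NCs, *ASPN*+ *CILP*+ cells and remaining cells. The NC curves of *COL9A1*, *COL14A1* and *COL16A1* rise steeply at low levels, with medians of 65.0, 7.64 and 22.0 rpm, whereas that of *COL6A3* lies to the right of the other groups over most of its length.

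These low levels were set beside those of other genes that are abundant in remaining cells. Among the members and the listed partner and marker genes, 22 had a median of at least 50 rpm in remaining cells. For 10 of them the median NC lay under 5% of the median remaining cell. They were *COL16A1* (1.36%), *COL9A1* (1.43%), *MATN3* (1.57%), *COL14A1* (1.86%), *COL2A1* (2.13%), *BGN* (2.36%), *COL9A2* (2.68%), *DCN* (2.77%), *COL3A1* (3.76%) and *ITGA10* (4.62%). Outside these 10 the next gene was *SERPINH1* at 10.3%, and the median NC was at 15.5% of the median remaining cell for *COL11A1*, 24.3% for *COL11A2*, 156% for *FMOD* and 273% for *ACAN*. RNA free in the cell suspension was not separated from the cells' own RNA. Its part in the NC values was not tested, and the NC levels of the 4 members among the 10 are not read as expression here.

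**Figure D3:**
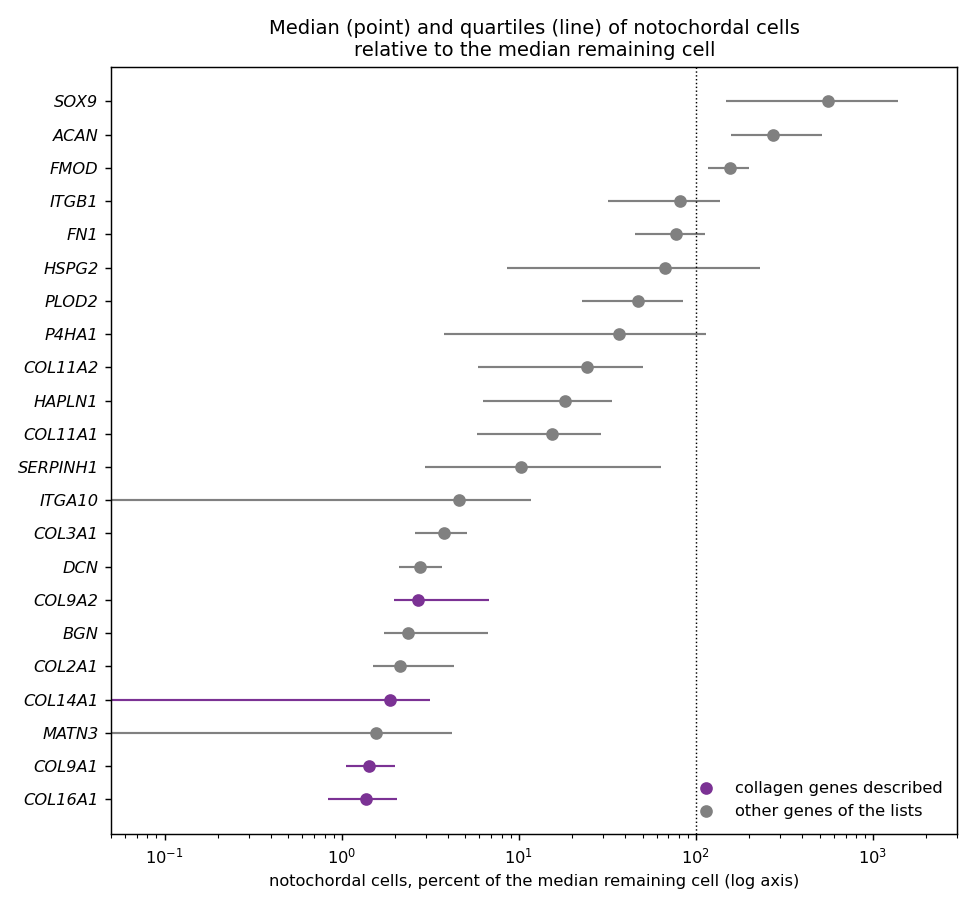
Median NC (point) and quartiles of NCs (line) as a percent of the median remaining cell (log axis) for the 22 genes with a median of at least 50 rpm in remaining cells; lines that begin at the left edge have a lower quartile of 0. *COL16A1*, *COL9A1*, *COL14A1* and *COL9A2* (purple) fall between 1.36% and 2.68%, near *COL2A1* at 2.13%.

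A few NCs carried much of the remainder. The 10% of NCs with the most reads held 77.0% of *COL9A1* reads, 66.1% of *COL9A2*, 79.4% of *COL16A1* and 79.8% of *COL14A1* reads. In remaining cells the corresponding shares were 38.3%, 30.9%, 30.8% and 39.4%. The NC with the highest *COL9A1* level, of tag A951, had 11610 rpm and 11042 rpm of *COL2A1* together with 205 rpm of *KRT19* and 68.5 rpm of *TBXT*. The next, also of tag A951, had 4622 rpm of *COL9A1*, 4991 rpm of *COL9A2*, 1751 rpm of *COL16A1* and 18525 rpm of *COL2A1*, with 540402 reads. Both cells thus had reads of notochordal markers and of chondrocyte collagens. Whether a barcode held 1 cell or more was not tested.

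Reads of the type IX chains were also set against each other, as a description of the reads in NCs and not of expression. In remaining cells there were 0.816 *COL9A2* reads per *COL9A1* read, with 0.769, 0.794, 0.806 and 0.857 by tag, and in *ASPN*+ *CILP*+ cells 0.884. In NCs there were 1.90, with 1.04, 2.82, 1.11 and 1.19 by tag. Gene length does not enter the comparison of 1 ratio between groups. The NC value was highest under tag A952, which held 236 of the 310 NCs, and under tag A951 the cell with 11610 rpm of *COL9A1* had 369.9 rpm of *COL9A2*. Over the 259 NCs with 5 or more reads of both genes, the median cell had 1.75 *COL9A2* reads per *COL9A1* read, against 0.944 over 4563 remaining cells, and the quartiles were 1.22 and 3.61 in NCs and 0.582 and 1.67 in remaining cells, so that the cells of the groups overlapped.

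Reads were also set against those of type II collagen, the fibrils to which type IX is bound. *COL2A1* is itself among the 10 genes under 5% in the median NC, so that these ratios describe reads only. Per 1000 *COL2A1* reads there were 186 *COL9A1* reads in NCs, 234 in *ASPN*+ *CILP*+ cells and 262 in remaining cells. *COL14A1* gave 23.2, 24.0 and 27.0 reads and *COL16A1* 67.4, 91.0 and 84.3 reads per 1000 *COL2A1* reads. *COL2A1* was at 1269 rpm in NCs and 21617 rpm in remaining cells. The ratio varied by tag, with 226 and 150.3 *COL9A1* reads in NCs of tags A951 and A952 against 265 and 263 in remaining cells. *COL9A2* gave 353, 207 and 214 reads in the 3 groups, with 235 and 424 in NCs of tags A951 and A952. *COL6A3* gave 167, 8.37 and 4.72 reads and *COL12A1* 8.65, 10.6 and 4.83 reads, and with so low a *COL2A1* level in NCs no difference is read from these ratios.

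*ASPN*+ *CILP*+ cells differed less from remaining cells. *COL9A1* and *COL14A1* were 2.00-fold and 2.02-fold lower, at the limit of 2-fold, *COL9A2* and *COL16A1* were 1.85-fold and 1.66-fold lower, *COL12A1* was 1.22-fold higher and *COL6A3* was at the same level. No member was at least 2-fold higher and 2 of the 6 were at least 2-fold lower, where 3.97% of the 9346 genes compared were at least 2-fold lower, 1.22% at least 2-fold higher and 5.19% past 2-fold in either direction. With the mean of ln(1 + rpm) over cells in place of pooled reads, 5 of the 6 were past 2-fold, *COL12A1* higher by 1.003 on the log2 scale and 4 lower, and with *ASPN* and *CILP* from 50 rpm none was. Both comparisons use the same remaining cells. The median gene differed by −0.009 on the log2 scale.

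*COL9A1* was at 5587, 3450, 1991 and 3032 rpm by tag in *ASPN*+ *CILP*+ cells, against 6505, 6406, 5231 and 5266 rpm in remaining cells. It was lower in each of the 4 tags, with log2 differences of −0.22, −0.89, −1.39 and −0.80. Tags A953 and A954 held most *ASPN*+ *CILP*+ cells, and without tag A953 the pooled difference was −0.84. *COL9A2* was likewise lower in each tag, with log2 differences of −0.31, −0.71, −1.36 and −0.68 and −0.89 pooled. *COL16A1* was at 1845, 1662, 968 and 1065 rpm by tag, with log2 differences from −0.81 to −0.11, and under tags A951 and A952 the differences were small.

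*COL14A1* was at 386, 429, 356 and 231 rpm by tag in *ASPN*+ *CILP*+ cells. It was lower than in remaining cells in each tag, with log2 differences of −0.74, −0.60, −0.53 and −1.32, and without tag A954 the pooled difference was −0.68. A read was found in 89.1% of *ASPN*+ *CILP*+ cells (86.5 to 91.4) and 93.0% of remaining cells (92.3 to 93.8), and 5 or more reads in 62.1% and 79.4%. The median cell was at 84.9 and 410.0 rpm, a wider gap than that of the pooled levels.

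*COL12A1* was the member that was higher in *ASPN*+ *CILP*+ cells in each tag. It was at 258, 146, 146 and 104 rpm by tag, with log2 differences of 1.30, 0.37, 0.24 and 0.21, and the first of these rested on 36 cells. The pooled levels were 127 rpm (126 to 129) and 104 rpm (104 to 105). More of the cells were positive, with a read in 70.6% (67.0 to 74.1) and 53.8% (52.4 to 55.2), 5 or more reads in 47.9% and 32.2%, and a read in 53.2% and 39.7% at 50000 reads per cell. *COL6A3* was at 128, 111, 84.2 and 108 rpm by tag in *ASPN*+ *CILP*+ cells, higher than in remaining cells under 2 tags and lower under the other two. A read of it was found in 69.1% of *ASPN*+ *CILP*+ cells and 57.6% of remaining cells, and at 50000 reads per cell in 45.1% and 37.5%.

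**Figure D4:**
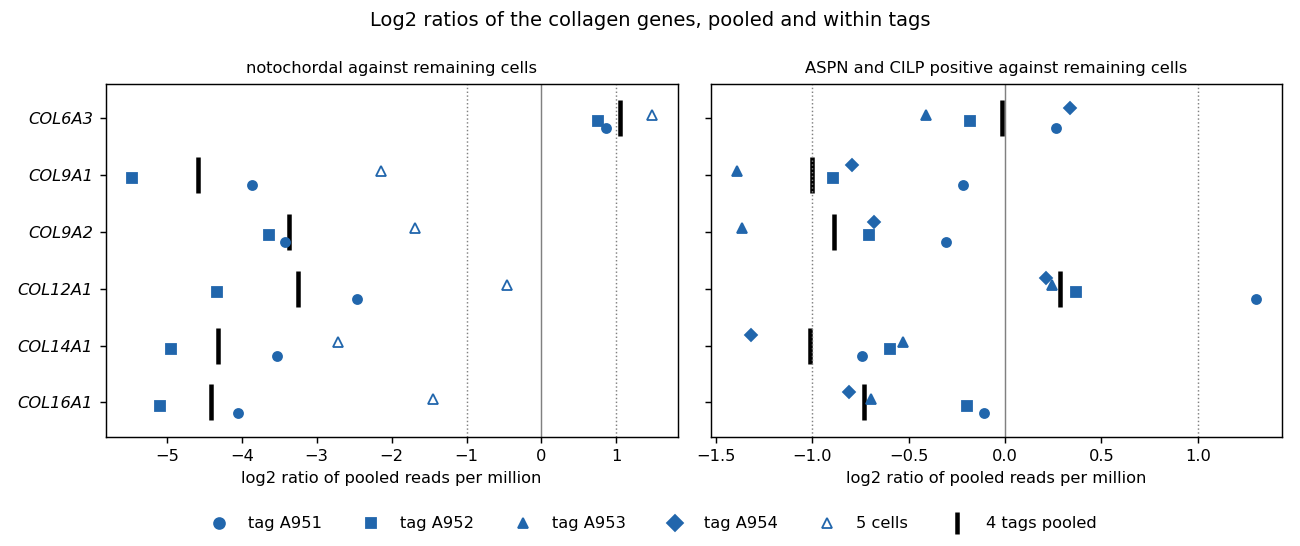
Log2 ratio of the pooled rpm of NCs (left) and *ASPN*+ *CILP*+ cells (right) to remaining cells; bars stand for the 4 tags pooled, symbols for single tags, the open symbol for 5 NCs, and dotted lines for 2-fold. On the left only *COL6A3* is above 0, on the right *COL12A1* is above 0 in each of the 4 tags, and the 2 NCs of tag A954 have no value of their own.

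The order of the groups was thus the same for 4 of the 6 genes. *COL9A1*, *COL9A2*, *COL14A1* and *COL16A1* were highest in remaining cells, lower in *ASPN*+ *CILP*+ cells and lowest in NCs. The *ASPN*+ *CILP*+ cells lay within the range of the remaining cells' tags under tag A951 for *COL9A1* and under tags A951 and A952 for *COL16A1*. *COL12A1* was lowest in NCs, and its tags overlapped between the other groups. *COL6A3* was highest in NCs, and its tags overlapped between the other groups.

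The collagens the members bind or share the matrix with were described from lists. Of 8 fibrillar chains, 5 were at least 2-fold lower and 1 at least 2-fold higher in NCs, where 12.3% of all genes compared were lower and 21.7% higher by as much, and the median log2 difference was −1.77 against 0.26 over all genes. The log2 difference was −4.09 for *COL2A1*, −3.58 for *COL3A1*, −2.14 for *COL11A1*, −1.40 for *COL11A2* and −5.90 for *COL1A1*, whereas *COL5A2*, a chain of the type V collagen that regulates fibril thickness, was at 306 against 73.7 rpm, higher by 2.05. *COL1A2* was nearly equal when pooled, at 852 and 939 rpm, yet the median NC had 305 rpm and the median remaining cell 26.9 rpm. In *ASPN*+ *CILP*+ cells 1 of 8 was at least 2-fold lower, against 3.97% of all genes compared, namely *COL1A1* at 236 against 646 rpm. *COL3A1* and *COL5A1* were 0.93 and 0.87 higher on the log2 scale, short of 2-fold.

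Of 12 matrix linkers, which join collagen fibrils to each other or to other molecules, 10 were listed, without *COMP* and *TNXB*. In NCs 6 of the 10 were at least 2-fold lower, against 12.3% of all genes compared, and none at least 2-fold higher, against 21.7%. The lower genes were the small proteoglycans *BGN*, *DCN* and *LUM*, at log2 differences of −3.42, −4.69 and −4.89, and the matrilins *MATN2*, *MATN3* and *MATN4*, at −1.52, −3.56 and −3.47. *FMOD*, a small proteoglycan of collagen fibrils, was at 9513 rpm in NCs and 6388 rpm in remaining cells, and *FN1*, fibronectin, at 4500 and 5533 rpm. In *ASPN*+ *CILP*+ cells *LUM* was at 815 against 197 rpm and *MATN4* at 98.7 against 45.8 rpm, both at least 2-fold higher, against 1.22% of all genes compared, and none of the 10 was at least 2-fold lower, against 3.97%.

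Of 10 receptors of collagens, 3 were at least 2-fold higher and 3 at least 2-fold lower in NCs, where 21.7% of all genes compared were higher and 12.3% lower by as much. *ANTXR2* and *ANTXR1*, of which the first binds and takes up type VI collagen, were at 82.9 against 10.0 rpm and 36.5 against 8.39 rpm. *DDR1*, a receptor tyrosine kinase for collagen, was at 303 against 43.0 rpm. Lower were the integrin chains *ITGA10*, at 16.6 against 225 rpm, *ITGA2*, at 19.7 against 251 rpm, and *ITGA11*, at 21.8 against 61.7 rpm. *CSPG4*, a proteoglycan that binds type VI collagen, was at 64.4 and 42.4 rpm, and *ITGB1*, the shared β chain, at 626 and 728 rpm. In *ASPN*+ *CILP*+ cells 1 of the 10 was past 2-fold, against 5.19% of all genes compared, namely *ITGA2* at 92.5 against 251 rpm.

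Of 10 genes for the assembly of collagens, 8 were listed, without *P4HA2* and *P4HB*. *LOX*, which forms cross-links, and *PLOD1*, a lysyl hydroxylase, were at least 2-fold lower in NCs, at 10.7 against 59.3 rpm and 83.7 against 175 rpm, 2 of the 8 beside 12.3% of all genes compared. *SERPINH1*, the collagen chaperone, was at 425 and 843 rpm, short of 2-fold, and the median difference of the 8 was −0.74 on the log2 scale. None of the 8 was past 2-fold in *ASPN*+ *CILP*+ cells, against 5.19% of all genes compared, and *LOXL2* had the highest ratio, at 89.2 against 45.4 rpm. Of other type VI and fibril-associated chains, *COL6A5* was at 1.76, 1.73 and 1.89 rpm in NCs, *ASPN*+ *CILP*+ cells and remaining cells, *COL6A6* at 0.45, 0.56 and 0.48 rpm and *COL19A1* at 1.47, 1.68 and 1.83 rpm. None of these 3 genes reached 2-fold in either comparison. The fourth listed chain, *COL20A1*, had a read in too few cells to be among the genes compared and was at 6.84, 0.98 and 1.19 rpm, 2.53 higher in NCs than in remaining cells on the log2 scale. *COL21A1* and *COL22A1* were not listed.

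The type IX genes and *COL16A1* varied together over *ASPN*+ *CILP*+ cells and over remaining cells. Pearson's r of ln(1 + rpm) over the 4683 remaining cells was 0.69 between *COL9A1* and *COL9A2*, 0.59 between *COL9A2* and *COL16A1*, 0.55 between *COL9A1* and *COL16A1* and 0.41 between *COL14A1* and *COL16A1*. Over the 660 *ASPN*+ *CILP*+ cells the same pairs had 0.73, 0.64, 0.57 and 0.44. *COL6A3* and *COL12A1* had values of at most 0.12 with any member in remaining cells, and with their sparse reads such values are no finding. In the 310 NCs the highest of the 15 values was 0.45, between *COL9A1* and *COL16A1*. The cells share 1 library and their depth, and the values are descriptions.

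**Figure D5:**
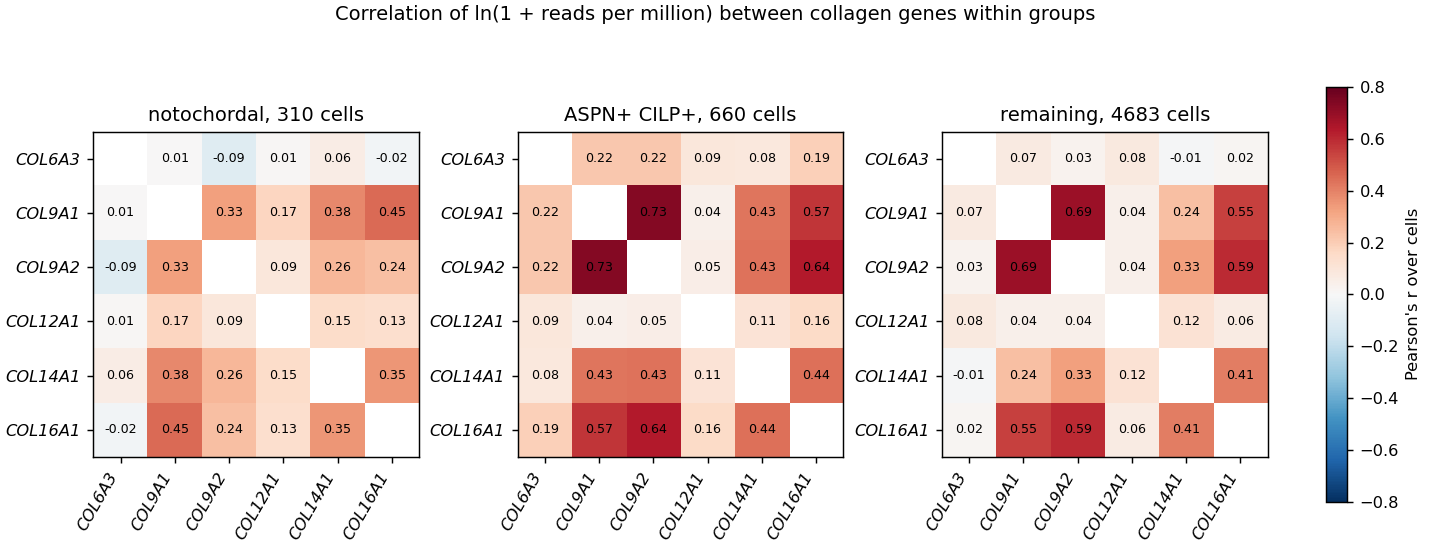
Pearson's r of ln(1 + rpm) between the 6 genes over cells (color and numbers), for NCs, *ASPN*+ *CILP*+ cells and remaining cells. In *ASPN*+ *CILP*+ cells and remaining cells *COL9A1*, *COL9A2* and *COL16A1* form the darkest squares, with 0.55 to 0.69 in remaining cells, which is not so in NCs, whereas the rows of *COL6A3* and *COL12A1* are pale.

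Over all 5653 kept cells, the 3 genes whose values were most like those of *COL9A1* among 9346 genes were *COL2A1* (r = 0.83), *COL9A2* (0.77) and *SPARC* (0.73). Those most like *COL9A2* were *COL2A1* (0.84), *COL9A1* and *SPARC* (0.75), and those most like *COL16A1* were *COL2A1* (0.72), *COL9A2* (0.70) and *COL9A1* (0.66). *COL14A1* was most like *COL16A1* (0.51), *BGN* (0.48) and *COL9A2* (0.46). *COL12A1* was most like *PRG4* (0.31), *OGN* (0.24) and *SEMA3A* (0.23), and *COL6A3* had no gene above 0.19. Such values include the difference between the groups. When NCs were left out, 12 of the 18 genes remained the same.

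The genes were also described across finer groups. Among NCs, the 72 cells with 5 or more reads of *SHH* and the 238 others had a median of 226388 and 173339 reads, 200 and 216 rpm of *COL6A3*, 206 and 247 rpm of *COL9A1* and 409 and 462 rpm of *COL9A2*. The median cell was at 45.9 and 19.4 rpm of *COL6A3*, in the opposite direction to the pooled levels. *COL14A1* was at 16.9 and 34.2 rpm pooled and at 8.29 and 7.59 rpm in the median cell, also in opposite directions, and *COL12A1* at 16.4 and 8.87 rpm pooled, with a median of 0 in both. Among remaining cells, the 1101 cells with 1000 rpm or more of *BMP2* had 677 rpm of *COL14A1* and the 3582 others 556 rpm. *COL9A1* was at 5634 and 5667 rpm in the same cells and *COL12A1* at 104 and 105 rpm. The 70 remaining cells with 5 or more reads of *COL10A1*, a marker of hypertrophic chondrocytes, had 50.6 rpm of *COL6A3* against 103 rpm in the other 4613 cells, whereas the median cell was at 7.21 against 4.22 rpm. The median depth of these cells was 255520 against 191236 reads, and its part in the values was not tested. *COL9A1* was at 5796 against 5656 rpm. *PRG4*, lubricin, was at 100 rpm or more in 4634 of the 4683 remaining cells, and the 49 others had a median of 110931 reads against 192466, so that little can be read from the 40.3 rpm of *COL12A1* in them against 105 rpm.

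Levels also differed with depth. When remaining cells were cut in 3 by the genes detected, the 1560 cells with the most had a median of 345460 reads and the 1561 with the fewest 101859 reads. *COL6A3* was at 118 and 84.6 rpm, *COL9A1* at 5848 and 5053 rpm, *COL14A1* at 515 and 654 rpm, *COL16A1* at 1674 and 1993 rpm and *COL12A1* at 99.8 and 123 rpm in these cells. *COL9A2* was at 4584 and 4486 rpm. The largest of these 6 differences was 0.48 on the log2 scale, for *COL6A3*.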

How the data were processed

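Cells of NP and AC were tagged, sorted as live cells and sequenced in 1 pooled TAS-seq library. Per the submitters' processing notes HISAT2 2.2.1 and featureCounts 2.0.2 were used for alignment to the monkey genome (build not given in the sources used here) and assignment to genes. The authors deposited counts of reads for each gene in each cell. These counts are not normalized and keep PCR copies, since the reads carry no molecular identifiers; 32.2% of the values above 0 were 1 read. Reads that fit several genes were allowed, so that related genes can share reads. The tag library was not used, and neither were 1358 cell columns of another matrix that the sample labels do not name.

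Of 5723 cells, 42 doublets and 7 untagged cells were left out by their tags, and then 20 cells with 5% or more mitochondrial reads (13 genes) and 1 cell with over 9000 genes detected; the limit of 200 genes removed none. No further doublet caller was run. Reads were summed over cells by group and tag and divided by the summed reads on genes (rpm). A gene with fewer than 3 reads in a group was set to 3 reads for a log2 ratio. Genes with a read in at least 10% of kept cells were compared. Intervals are exact Poisson and exact binomial (Clopper-Pearson). Thinning drew 50000 reads per cell without replacement. No test between groups was made, because there is 1 library and its tags are not matched to tissue samples. Levels are not compared between genes, since gene lengths were not used, and ratios of reads of a pair of genes are compared only between groups. The text names the members, genes of the partner and marker lists and genes that split cells into finer groups. It also names the 3 genes with the highest r to each member other than *COL6A3*, and collagen genes examined after the values were seen. The members and the lists were chosen with earlier results of these data known.

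Python 3.11.15, numpy 2.4.6, scipy 1.17.1, pandas 2.3.3 and matplotlib 3.10.9 were used, and the calculations were tested on simulated data. Alternatives were another summary of cells, thinning, other limits on cells and groups, leaving out the highest 1% of cells or each tag, and ratios less the median of all genes.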

Additional observations from a re-analysis of the deposited data

Results flagged for a closer look

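The 49 cells with a doublet tag or with no tag entered no comparison. Of these, 42 were doublets, which can be mixtures of cells of the groups described. The 49 cells held 105 rpm of *COL6A3*, 6951 rpm of *COL9A1*, 5741 rpm of *COL9A2*, 68.5 rpm of *COL12A1*, 555 rpm of *COL14A1* and 1998 rpm of *COL16A1*. Each was above the 0.29 rpm that 3 reads would give, a limit that says little at such levels. Of the 12 sets of 4 tag values examined (6 genes in *ASPN*+ *CILP*+ cells and in remaining cells), 0 had an outlying tag. Outlying meant a gap to the nearest other tag beyond Dixon's 95% critical value for 4 values. This value served only to screen the tags, which are not used as replicates.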

How the results depend on the processing

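No paired analysis was possible because the labels give 1 expression library and no replicate numbers, and the tags are not matched to tissue samples; differences within tags are given as values with no test. The alternatives numbered 15 for each gene and comparison, of which the ratio less the median of all genes was chosen after seeing the data. Between NCs and remaining cells each of the 6 genes kept its direction under all 15, and the count past 2-fold was 6 at the main settings and 5 where NCs were taken from 5 reads of either *KRT19* or *TBXT*, without tag A954 (range 5 to 6 over the 4 tags left out), and less the median of all genes, where the log2 difference of *COL6A3* was 0.92, 0.89 and 0.79. With NCs from either gene the log2 differences were −2.69 for *COL9A1*, −2.25 for *COL9A2*, −2.43 for *COL12A1*, −2.52 for *COL14A1* and −2.89 for *COL16A1*. Over the 15 alternatives the log2 difference ranged from 0.79 to 1.77 for *COL6A3*, −5.32 to −2.69 for *COL9A1* and −4.29 to −2.25 for *COL9A2*. It ranged from −3.96 to −1.80 for *COL12A1*, −5.49 to −2.52 for *COL14A1* and −5.61 to −2.89 for *COL16A1*. Between *ASPN*+ *CILP*+ cells and remaining cells the count of 2 was 1 with the mean of the cells' rpm, 5 with the mean of ln(1 + rpm) (4 lower and *COL12A1* higher), 1 with thinned cells, 1 with at least 2500 genes per cell, 1 with NCs from 20 reads, 0 with *ASPN* and *CILP* from 50 rpm, 1 less the median of all genes, and 1 to 2 without each tag. *COL6A3* kept its direction under 8 of 15 in that comparison, and the 5 other genes under all 15. Values of NCs under tags A953 and A954 are limited by the number of cells, 5 and 2.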

Other observations

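A further 18 collagen genes were listed, of which 16 had a read in at least 10% of cells. They were not on the lists above and were examined after the values were seen. Between NCs and remaining cells, 1 of the 16 was at least 2-fold higher and 6 at least 2-fold lower, beside 21.7% and 12.3% of all genes compared. The higher gene was *COL28A1*, which encodes a collagen with flanking domains like those of type VI, at 20.8 against 0.78 rpm. In NCs it was found mostly under tag A952. It was at 26.6 rpm in NCs of tag A952 and 0.57 rpm in those of tag A951, and 17.1% of NCs and 13.7% of remaining cells had a read, whereas 6.13% and 0.06% had 5 or more. *COL27A1*, a fibrillar collagen of cartilage, was at 285 rpm in NCs, 196 rpm in *ASPN*+ *CILP*+ cells and 338 rpm in remaining cells, with 5 or more reads in 68.1%, 68.3% and 73.8% of cells. It was short of 2-fold in both comparisons. In *ASPN*+ *CILP*+ cells *COL5A3* was at 6.86 against 2.95 rpm and *COL8A1* at 2.72 against 5.82 rpm, the 2 genes of the 16 past 2-fold, beside 5.19% of all genes compared. Few cells had 5 or more reads of them, 3.03% against 0.92% for *COL5A3* and 1.06% against 1.77% for *COL8A1*. *COL8A2*, a short-chain collagen, was at 3.42 rpm in NCs, 44.2 rpm in *ASPN*+ *CILP*+ cells and 43.2 rpm in remaining cells.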
